A study of Drosophila melanogaster with 2 samples.

Results

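Nucleoporin genes encode the proteins that build the nuclear pore. The members described here were chosen by symbol from the Ensembl BDGP6.54 annotation of the Drosophila melanogaster genome, as every protein-coding gene whose symbol starts with Nup followed by a digit. They number 21 of 13968 protein-coding genes. The chromatin immunoprecipitation with sequencing (ChIP-seq) data show where a tagged protein was cross-linked to DNA. Whole embryos aged 0 to 24 h came from a fly strain labelled CG7372-GFP, with an insertion that expresses CG7372 fused to eGFP, and the fusion was pulled down with an antibody to GFP. CG7372 is annotated as Phs. The labels give 2 biological replicates of 1 group, both of this genotype and age and with 1 donor identifier, so the spread between them may be technical. There is no second genotype, age or treatment, sex was not collected, and embryos of all ages in the window and all their tissues were mixed, so the cells behind a peak are not known. No control library was analysed, although the labels name a possible control experiment. Whether the deposited peaks were called against a control is not known here. Binding of the fusion cannot be told apart from DNA fragments that collect at active promoters whatever is pulled down. The labels do not say which regulatory DNA drives the fusion.

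The nuclear pore is the channel through the nuclear envelope by which proteins and RNA enter and leave the nucleus. Its frame is an outer ring, made of copies of the Y-shaped complex on both faces of the envelope, and an inner ring between them. Nucleoporins rich in phenylalanine-glycine repeats fill the central channel and bind the transport receptors, and further nucleoporins form the cytoplasmic filaments and the nuclear basket. Embryos make pores rapidly during the early nuclear divisions, and some nucleoporins also contact chromatin.

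A gene is called bound here if the summit of a peak, its highest point, lies within 500 bp of one of the gene's transcription start sites (TSS). The peaks are those of the conservative thresholded list of the series, which was made from both replicates and filtered by the irreproducible discovery rate (IDR), a measure of how well peaks rank alike between inputs. By this rule 6 of the 21 genes were bound: Nup37, Nup43, Nup98-96, Nup133 and Nup160 of the Y complex, and Nup93-2 of the inner ring. Each summit lay between genes, in the gap between the nucleoporin gene and a protein-coding gene read in the opposite direction. The sequences of these gaps are shown because they are the DNA under the 6 summits. They were read from the RefSeq sequence of Release 6 (dm6) on the plus strand, 5′ to 3′, and the 21 bases centred on the summit are in capitals, fewer where the gap ends. The whole gap is given for Nup37 with RpS27 (chr3R:25247515-25247657), Nup98-96 with mbc (chr3R:23781622-23781764), Nup133 with wfs1 (chr3R:22690381-22690606) and Nup160 with Csl4 (chr2L:11123568-11123776). The gaps of Nup93-2 with CG3817 (chr3R:14898373-14898522) and of Nup43 with WRNexo (chr3R:18366423-18366623) are longer and are given within 100 bases of the summit.
Nup37: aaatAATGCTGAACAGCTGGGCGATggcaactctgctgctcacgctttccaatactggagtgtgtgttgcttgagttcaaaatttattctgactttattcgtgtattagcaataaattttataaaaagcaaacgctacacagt
Nup98-96: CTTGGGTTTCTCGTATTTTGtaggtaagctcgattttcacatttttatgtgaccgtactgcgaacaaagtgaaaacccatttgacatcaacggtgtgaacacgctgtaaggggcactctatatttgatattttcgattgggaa
Nup133: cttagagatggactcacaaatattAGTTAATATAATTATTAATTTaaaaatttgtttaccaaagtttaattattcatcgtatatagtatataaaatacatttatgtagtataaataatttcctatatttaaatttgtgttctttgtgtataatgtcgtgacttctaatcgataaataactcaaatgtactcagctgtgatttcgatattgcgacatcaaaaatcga
Nup160: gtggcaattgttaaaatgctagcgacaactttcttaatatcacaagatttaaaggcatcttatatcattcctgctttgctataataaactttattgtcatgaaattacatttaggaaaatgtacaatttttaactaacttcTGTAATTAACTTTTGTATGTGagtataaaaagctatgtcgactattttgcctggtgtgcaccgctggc
Nup93-2: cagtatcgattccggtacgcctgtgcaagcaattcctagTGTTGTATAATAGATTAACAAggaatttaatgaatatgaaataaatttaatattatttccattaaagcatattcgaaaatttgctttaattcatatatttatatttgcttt
Nup43: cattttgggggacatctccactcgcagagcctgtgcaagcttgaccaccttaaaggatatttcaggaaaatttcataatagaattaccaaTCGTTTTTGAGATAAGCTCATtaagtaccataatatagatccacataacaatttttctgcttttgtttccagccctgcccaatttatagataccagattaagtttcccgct

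The 6 bound genes made up 28.6% of the 21 nucleoporin genes, beside 16.7% of all protein-coding genes bound in the same list. The count is a description and was not tested. The arrangement of a promoter bears on how its share reads. A gene is divergent here if a protein-coding TSS of the other strand lies within 1000 bp of its own and points away from it. Of the 21 nucleoporin genes 18 (85.7%) were divergent, beside 36.2% of all protein-coding genes. Among the 18 divergent nucleoporin genes 6 (33.3%) were bound, beside 30.1% of all divergent protein-coding genes, a share near the background. The 3 nucleoporin genes with no divergent partner, Nup54, Nup107 and Nup358, included 0 bound genes, beside 9.07% of all such genes.

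The thresholded lists of the single replicates called the same nucleoporin genes except Nup43. In replicate 1, 5 of 21 were bound beside 11.8% of all protein-coding genes, and in replicate 2, 5 of 21 beside 13%. Both replicates called the same 5 genes (23.8%), beside 9.87% of all genes called in both. A second thresholded list of the series, called the series-level list here, gave the same 6 genes, beside 16.8%. The deposited ranked lists also hold the peaks that failed the IDR threshold. In the conservative ranked list 18 of 21 members (85.7%) had a summit in reach, beside 67.8% of all genes, and in the series-level ranked list 16 did (76.2%), beside 71.3%. In the ranked lists of the replicates it was 14 (66.7%) beside 55.6% in replicate 1 and 18 beside 59.4% in replicate 2. A summit in a ranked list is thus found at most genes, whether nucleoporin or not.

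**Figure D1:**
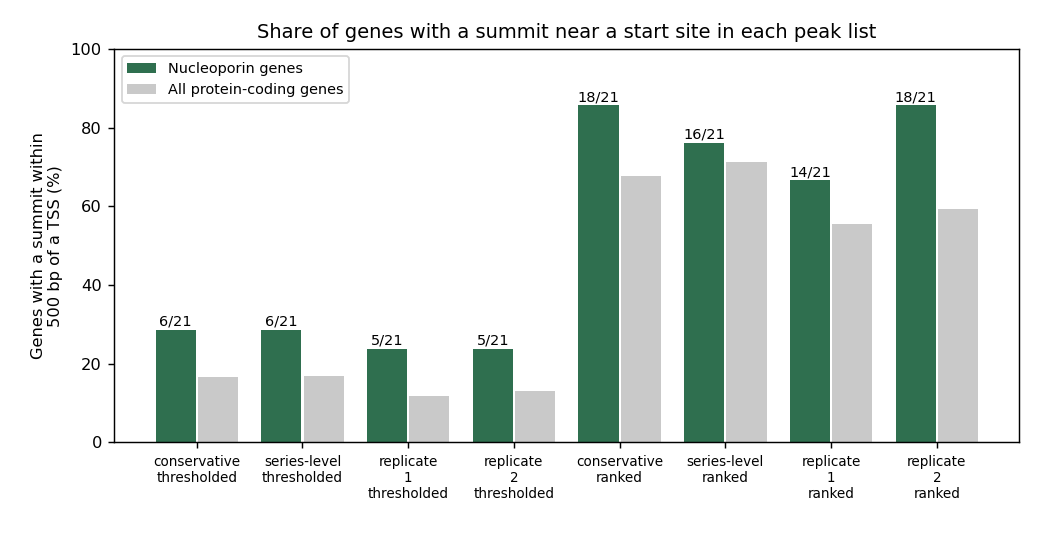
Share of genes (percent) with a summit within 500 bp of a TSS in each of the 8 peak lists, for the 21 nucleoporin genes (green, with counts) and all 13968 protein-coding genes (grey). In the thresholded lists the nucleoporin counts were 5 or 6, and in the ranked lists they were 14 to 18, where most genes of either kind have a summit.

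The call at a few members depended on how a summit is tied to a gene. With a reach of 200 bp the 6 genes were again bound, beside 11.6% of all genes, and with 1000 bp Nup58 was added, beside 19.7%. When only the outermost 5′ end of each gene counted, the same 6 were bound, beside 14.6%. When each summit went only to the nearest TSS, 4 remained bound, beside 12.1%, because the summits at Nup37 and Nup133 lie nearer to RpS27 and wfs1. The same 4 were left, beside 8.62%, when the peak interval itself had to cover a TSS. Among the peaks at or above the list's median signal 5 were bound, beside 10.9%, and Nup43 was lost.

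Of the 8 members placed in the Y complex 5 were bound, beside 16.7% of all protein-coding genes and 30.1% of all divergent ones. Sec13, a Y complex subunit outside the symbol rule, is given with the other pore genes below. Only 3 of the 8 were bound when each summit went to the nearest TSS (12.1% of all genes) or when the peak interval had to cover a TSS (8.62%). Nup37 encodes a small beta-propeller protein of the Y. Nup37 (FBgn0039301) is a plus-strand gene of 3R, from 25247658 to 25249100, and its summit at 25247529 was 129 bp upstream of its TSS. The deposited signal of a peak has no stated scale and was compared only within 1 list. At Nup37 it was 299.9 in the conservative list, rank 278 of 4594 and the highest of the 6. Replicate 1 gave 126.9, rank 470 of 2805, and replicate 2 gave 182.1, rank 167 of 3081. Both replicates thus placed this peak high in their lists, with summits 43 bp apart. The peak is 204 bp wide and covers the TSS of RpS27, a protein of the small ribosomal subunit. Its summit stands 15 bp upstream of that TSS, across a gap of 144 bp between the start sites. The noncoding gene sisRNA:CR46364 starts 107 bp from the summit, and its start site is also within the peak, which covers no TSS of Nup37.

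Nup98-96 encodes a precursor that is cut into Nup98, a repeat-rich nucleoporin that binds RNA export factors, and Nup96, a core subunit of the Y. The gene (FBgn0039120) lies on the minus strand of 3R from 23774225 to 23781621. Its summit at 23781631, 10 bp upstream of the TSS, was the closest of the 6. The signal was 162.3, rank 873 of 4594. In replicate 1 it was 88.5, rank 882, and in replicate 2 it was 69.0, rank 1041, and both replicates put the summit on the same base, 27 bp downstream of the TSS. The partner across a gap of 144 bp is mbc, myoblast city, an activator of Rac needed for myoblast fusion, whose TSS was 134 bp from the summit. The conservative list has a further peak 1302 bp upstream of Nup98-96 (summit 23782923, signal 103.2), in an intron of mbc and not within 500 bp of a TSS.

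Nup160 and Nup133 are large scaffold subunits of the Y, with Nup133 at the end of its stem. Nup160 (FBgn0262647) is a plus-strand gene of 2L, from 11123777 to 11129335, with the summit at 11123719, 58 bp upstream. Its signal was 109.7, rank 1642 of 4594, with 70.3 (rank 1300) in replicate 1 and 42.2 (rank 2234) in replicate 2. The replicate summits were 71 bp apart. Csl4, a subunit of the RNA exosome, shares the summit at a distance of 152 bp, across a gap of 210 bp. Nup133 (FBgn0039004) is a plus-strand gene of 3R, from 22690607 to 22694772, with the summit at 22690415, 192 bp upstream and the farthest of the 6. The signal was 109.4, rank 1646 of 4594. In replicate 1 it was 75.3 (rank 1143), 68 bp upstream, and in replicate 2 it was 39.6 (rank 2430), 200 bp upstream, so the strongest summits lay 132 bp apart. Replicate 2 had a second, weaker summit at 22690609 (signal 11.2). The partner wfs1, which encodes the endoplasmic reticulum protein wolframin, starts 35 bp from the conservative summit, and the gap is 227 bp.

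Nup43, another beta-propeller subunit of the Y, had the weakest of the 6 peaks and the least stable call. Nup43 (FBgn0038609) is a plus-strand gene of 3R, from 18366638 to 18367913, and the summit at 18366523 was 115 bp upstream. The signal was 69.78, rank 3209 of 4594 and below the list's median of 88.27. Neither replicate had a thresholded peak there. In the ranked lists the summit had a signal of 37.8 with a score of 47 in replicate 1 and of 32.0 with a score of 689 in replicate 2. The score follows the IDR, up to 1000, and the thresholded lists hold only scores of 830 or more, so both replicate peaks fell short. WRNexo, an exonuclease related to the Werner syndrome protein, shares the summit from 361 bp away across the widest gap of the 6, 476 bp.

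**Figure D2:**
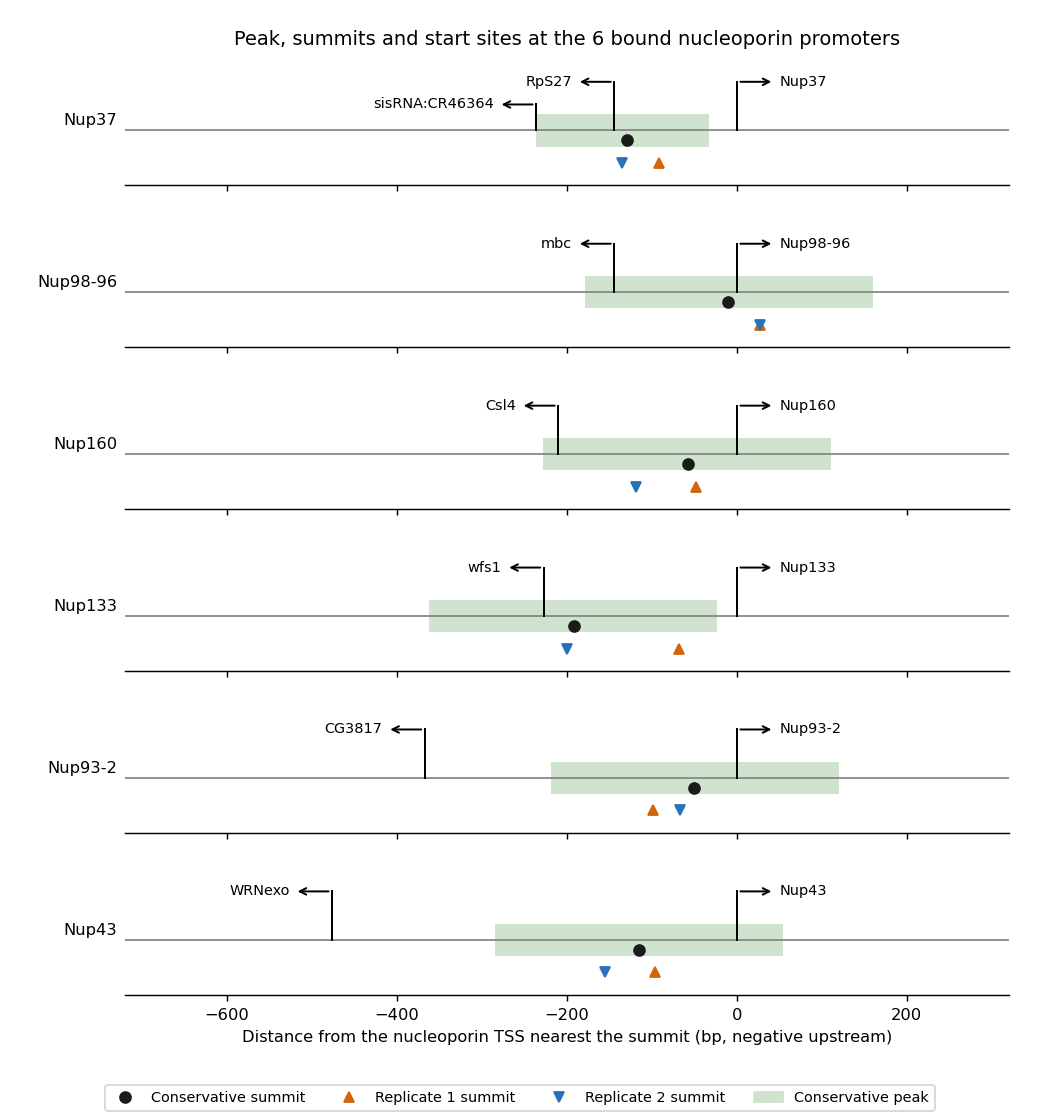
Peak interval (green), conservative summit (black circle) and strongest summit of each replicate in the ranked lists (triangles) at the 6 bound nucleoporin promoters, along the distance in bp from the nucleoporin TSS, with arrows for every TSS within 500 bp of the summit. The conservative summits lie 10 to 192 bp upstream of the nucleoporin TSS, and the replicate summits are 0 to 132 bp apart.

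The other 3 members placed in the Y complex, Nup44A, Nup75 and Nup107, were not bound. Nup107 pairs with Nup133 in the stem of the Y. Its nearest conservative summit was 1248 bp upstream (signal 132.3), at the start sites of CG12299 and Vha16-5. In the conservative ranked list Nup107 had a summit 62 bp upstream of its TSS with a signal of 38.6 and a score of 367, and its replicate values were 19.4 and 18.5, so this peak appeared in both replicates below the threshold. Nup44A, the fly Seh1, starts at its nearest 145 bp from a TSS of ACC, which encodes acetyl-CoA carboxylase. ACC was bound at another of its start sites, 30 bp from a summit that lies 4369 bp upstream of Nup44A (signal 229.3). Nup75, the fly counterpart of human Nup85, had its nearest conservative summit 6552 bp away (signal 91.76). Its partners CG42518 and MED9, a Mediator subunit, at gaps of 87 and 115 bp were not bound. In the conservative ranked list the strongest summit in reach had a signal of 19.5 at both Nup44A and Nup75. Nup44A had none in replicate 1 and 18.4 in replicate 2, and Nup75 had 20.2 and 11.4.

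Of the 6 genes of the inner ring 1 was bound, Nup93-2, beside 16.7% of all protein-coding genes and 30.1% of all divergent ones. All 6 are divergent. Nup93-2 is 1 of a pair of fly genes for the scaffold protein Nup93. It (FBgn0038274) lies on the minus strand of 3R from 14895703 to 14898372, and the summit at 14898422 was 50 bp upstream. The signal was 93.97, rank 2077 of 4594. Replicate 1 gave 47.0 (rank 2290, score 873) and replicate 2 gave 47.8 (rank 1875), with summits 32 bp apart, so the peak passed the threshold in both replicates, in the lower part of each list. CG3817 shares the summit at a distance of 317 bp, across a gap of 367 bp.

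The other gene for Nup93, Nup93-1, starts 519 bp from Clic, a chloride intracellular channel gene, and had its nearest conservative summit 16236 bp away (signal 86.09). It had no summit in reach in 3 of the 4 ranked lists and a weak one of 9.91 in replicate 2. Nup205 and Nup188, large ring-shaped scaffold proteins, had their nearest summits 1529 bp and 7967 bp away. For Nup205 that summit (signal 117.9) lies in an intron of its partner pico, 155 bp across the gap, and pico was bound at a different summit, 171 bp from one of its start sites and 3565 bp from Nup205 (signal 116.5). CG13148, the partner of Nup188 at a gap of 70 bp, was not bound. In the conservative ranked list the strongest summit in reach had a signal of 29.7 at Nup205 and 20.8 at Nup188. Nup205 had 10.9 in replicate 1 and 14.4 in replicate 2, and Nup188 had none and 11.4. Nup35, whose counterparts in other species tie the inner ring to the membrane, had its nearest conservative summit 2206 bp upstream in an intron of its partner Rip11, with a signal of 8.92. Replicate 2 had a thresholded summit 984 bp upstream (signal 35.6). Nup154, the fly counterpart of human Nup155, shares a gap of 631 bp with RpL9, a protein of the large ribosomal subunit, and neither was bound in the conservative list. The nearest conservative summit of Nup154 was 6339 bp away (signal 57.67). Replicate 2 had a thresholded summit 724 bp upstream, at 11004096 (signal 35.6). It lies inside RpL9 and within 500 bp of the RpL9 TSS at 11004189, so RpL9 was bound in that list. Replicate 1 had a ranked summit 406 bp upstream of Nup154 with a score of 811, just short of 830.

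The 3 repeat-rich proteins of the central channel are encoded by Nup54, Nup58 and Nup62, and 0 of these 3 genes were bound, beside 16.7% of all protein-coding genes, from which nothing is read with so few members. Nup58 came closest to the limit of 500 bp. Its nearest conservative summit was 544 bp upstream (signal 76.36, rank 2856), 96 bp from the TSS of its partner Vha13, a proton pump subunit gene, across a gap of 640 bp. On the inner side of the limit the farthest bound member was Nup133 at 192 bp, so no member lay between these distances. Replicate 2 had the same peak at 546 bp (signal 38.6), while the nearest of replicate 1 lay 3147 bp away. Nup58 also had a ranked summit 28 bp downstream of its own TSS (signal 43.4, score 467), seen in replicate 1 at 31.7 and in replicate 2 at 16.8. Nup54 had its nearest summit 4811 bp away, a strong peak of 340.9 at DUBAI and Tmem18. Nup62 had its nearest 7701 bp away (signal 40.03), and its partner CG7997 at a gap of 195 bp was not bound. Nup62 had a ranked summit in reach in replicate 2 only (signal 18.4), and Nup54 in the conservative list only (9.13).

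The genes of the cytoplasmic side, Nup214 and Nup358, and of the nuclear basket, Nup50 and Nup153, held 0 bound members. All protein-coding genes had 16.7%, and with 4 members nothing is read from this count. Nup214 docks mRNA export factors on the cytoplasmic face. Its nearest summit was 1467 bp upstream (signal 101.2), in an intron of its partner ReepA, which shapes the endoplasmic reticulum. ReepA was bound, with a weaker summit (signal 22.81) nearer to one of its start sites, at 145 bp. In the conservative ranked list Nup214 had a summit 12 bp upstream of its own TSS (signal 20.7). Its signal was 9.86 in replicate 1, and replicate 2 had none in reach. Nup358, a large protein that binds Ran, lies just downstream of Nup37, and its nearest conservative summit, 1819 bp upstream, is the Nup37 and RpS27 peak of signal 299.9. In replicate 1 a ranked summit 465 bp upstream of Nup358 had a signal of 32.3 and a score of 682, and the strongest in reach in replicate 2 was 8.37. Nup50 and Nup153, both binding partners of importins, had their nearest conservative summits 23185 bp and 16439 bp away, the largest distances of the members in that list. The strongest ranked summit in reach of Nup50 had a signal of 18.25 in the conservative list, 15.1 in replicate 1 and 11.5 in replicate 2. Nup153 had one in replicate 2 only, 47 bp downstream (signal 17.8). Their partners Asap and CG9784, at gaps of 35 and 26 bp, were not bound.

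**Figure D3:**
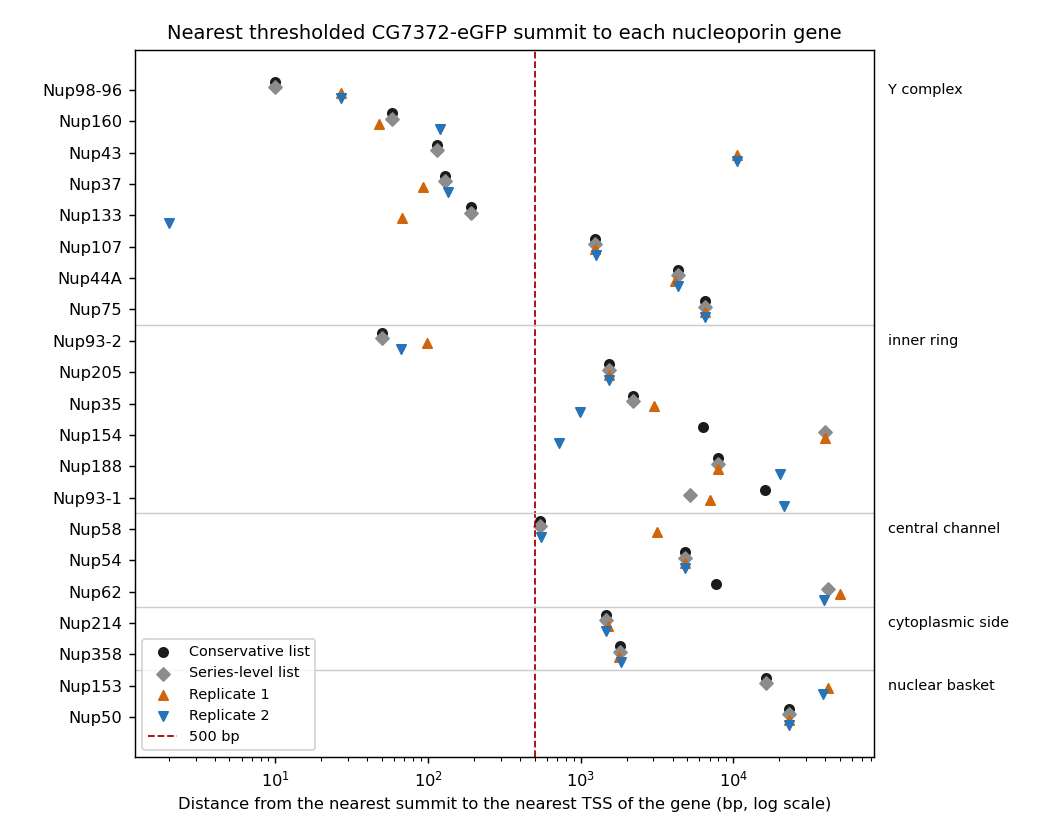
Distance in bp (log scale) from each nucleoporin gene's nearest TSS to the nearest summit in the 4 thresholded lists, with genes grouped by subcomplex and the 500 bp limit as a dashed line. All markers of Nup37, Nup98-96, Nup133, Nup160 and Nup93-2 lie inside the limit, Nup43 lies inside in the lists of the series only, and Nup58 lies just outside at 544 bp. The replicate 2 marker of Nup133 is its second, weaker summit.

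The signals of bound and unbound members in the ranked lists of the single replicates can be set side by side. They come from the same replicates as the conservative list, so the values are a description and no separate evidence. In replicate 1 the strongest summit in reach ran from 37.8 to 126.9 at the 6 bound genes, while the highest among the others was 32.3, at Nup358. In replicate 2 it ran from 32.0 to 182.1, while the highest among the others was 18.5, at Nup107. Nup43 stood close to the unbound genes in replicate 1. Of the 21 members, 7 in replicate 1 and 3 in replicate 2 had no summit in reach and so no value. A separation of the bound genes follows largely from the call itself, and it was not set beside that of all protein-coding genes. Peaks that scored past 830 in the ranked lists yet were left out of the thresholded lists numbered 60 to 91 per list, and 0 members had one within 500 bp. Members on 2R, 7 in all, included 0 bound genes beside 15.8% of all genes there, and the 4 on X included 0 beside 15.3%. On 3R 5 of 7 were bound beside 18.1%, and on 2L 1 of 3 beside 15.8%.

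**Figure D4:**
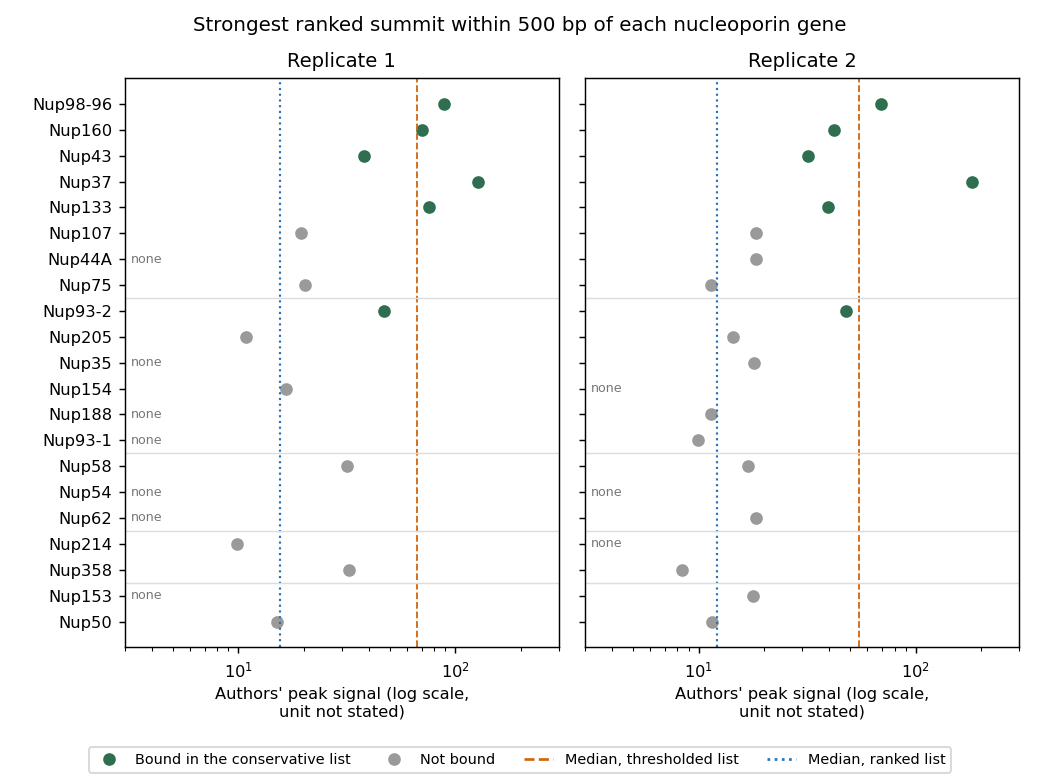
Signal (log scale, unit not stated) of the strongest ranked summit within 500 bp of each nucleoporin gene in replicate 1 and replicate 2, with the medians of the thresholded and ranked lists as lines. The 6 bound genes (green) run from 37.8 in replicate 1 and 32.0 in replicate 2 upward, above the other members with a summit in reach. Nup37 is the highest in both. The bound call was made from the same replicates, so the separation is no separate evidence.

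Every bound nucleoporin gene shared its summit with a partner, so neither gene of a pair can be singled out. The sharing follows from the arrangement, because a summit in a gap shorter than 500 bp is in reach of both start sites. Of all 2330 bound protein-coding genes 59.8% shared their summit with another protein-coding gene and 65.3% were divergent. The share among bound divergent genes with gaps of like length was not counted. The distance from summit to TSS had a median of 86.5 bp at the 6 genes and 142 bp at all bound genes. The signal at the 6 genes had a median of 109.6 (69.78 to 299.9), beside 110.2 at all bound genes, so their peaks were of ordinary strength for the list. The gap between the 2 start sites ran from 144 to 476 bp with a median of 218.5 bp at the bound members and from 26 to 640 bp with a median of 202.5 bp at all divergent members. Of the 12 divergent members that were not bound, 4 had a bound partner: ACC, Vha13, pico or ReepA. Of all divergent protein-coding genes 30.1% were bound, but that share is not limited to partners of unbound genes. The share among such partners was not counted. Only the Vha13 summit, 544 bp from Nup58, lay in the gap shared with the nucleoporin gene. The summits of ACC, pico and ReepA were at other start sites of these genes, 4369, 3565 and 1666 bp from the nucleoporin TSS.

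Short motifs were searched on both strands within 50 bp of each summit. Their matches are a description of letters and say nothing of which factor is present. CGTAT, the core of the leading words found at these peaks in earlier work on the same files, occurred near 2 of the 6 summits, 4 bp from that of Nup98-96 and 45 bp from that of Nup133. It occurred in 30.8% of all 4593 summit windows and in 18.2% of the 1820 within 500 bp of a protein-coding TSS. The longer word CATACGCC occurred near 0 of the 6, beside 9.01% of all windows and 2.8% of those near a TSS. The E-box CAGCTG lay 2 bp from the Nup37 summit, within the capitals printed above, and occurred in 3.63% of windows near a TSS. CGATA, which is part of the DNA replication-related element TATCGATA, was near the summit of Nup93-2 only (18.4% of windows near a TSS). TATAAA was near those of Nup98-96 and Nup160 (20.8%). TATCGATA (2.8%), GAGAG (9.07%) and GGTCACAC (1.21%) were near 0 of the 6 summits.

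Promoter windows from 250 bp upstream to 50 bp downstream of the outermost TSS were searched in the same way. Such a window can reach past a short gap into the partner gene. GGTCACAC is the core of Motif 1, a core promoter element of housekeeping genes. It was in 3 of the 6 bound promoters (Nup43, Nup93-2 and Nup160) and in 0 of the 15 unbound ones. It was in 7.69% of all promoters and 10.9% of bound ones. The matches of Nup43 and Nup93-2 start 12 and 32 bp downstream of the TSS. That of Nup160 starts 222 bp upstream, beyond the gap of 210 bp. It lies inside Csl4, on the strand of Csl4, so it may belong to the partner. TATCGATA was in 0 of the 6 bound promoters and in 5 of the 15 unbound (Nup50, Nup54, Nup58, Nup75 and Nup188). It was in 9.36% of all and 13.1% of bound promoters. The Nup50 match starts 71 bp upstream of the TSS, beyond the gap of 35 bp and inside Asap. These counts were not tested. TATAAA was in all 6 bound promoters and 8 of the 15 unbound, beside 45.8% of all and 46.2% of bound promoters. The match of Nup98-96 starts 1 bp downstream of the TSS. CGTAT was in 2 of the 6 and 3 of the 15, beside 28.8% of all and 29.7% of bound promoters. In the same order, CAGCTG was in 2 and 2 (17.6% and 22.8%) and GAGAG in 1 and 2 (29.7% and 30.3%). CGATA was in 3 and 9 (47.3% and 52.2%) and CATACGCC in 0 of either (0.415% and 0.558%). The bases within 50 bp of the 6 summits had a median GC content of 29.21% (21.78 to 48.51%), beside 32.67% at summits near a protein-coding TSS and 36.63% at all summits.

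Of 9 other genes of the pore, whose symbols do not start with Nup and a digit, 2 (22.2%) were bound, near the 16.7% of all genes. In both replicates 0 of the 9 were bound, beside 9.87% of all genes. Elys, which starts pore assembly on chromatin, had a summit 226 bp upstream (signal 69.56), shared with Ranbp21 and thresholded in replicate 2 only. Sec13, a Y complex subunit that also serves in vesicle coats, had one 133 bp upstream (signal 71.58), shared with ATPsynCF6 and thresholded in neither replicate. Both signals were below the list's median. Aladin, Gle1, Gp210, Mgtor, Ndc1, Rae1 and mbo were not bound.

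Among 25 genes of nuclear transport, the importins, exportins, Ran cycle and mRNA export factors, 8 (32%) were bound. The share was 16.7% of all protein-coding genes and 30.1% of all divergent ones, and how many of the 25 are divergent was not counted. In both replicates 5 (20%) were, beside 9.87%. These counts were not tested. The strongest was Tnpo-SR, which imports SR splicing proteins, ranked 277 of 4594, at a summit shared with HemK2 and Snapin. RanGAP, which makes Ran hydrolyse GTP, had a signal of 244.4 and shared its summit with Hs2st. The importin alpha gene Kap-alpha3 had 205.9 with Son, and Tnpo, a transportin, had 153.9 with Sf3b6. The importin msk had 89.42 with Arp3, and these 5 were the ones called in both replicates. Karybeta3, an importin of the beta family, had 117.1 at a summit shared with no other gene and was called in replicate 1 only. Ranbp21, an exportin, shared the Elys summit, and Fs(2)Ket, the importin beta gene, had 64.37 with TM9SF2 and was called in neither replicate.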

How the data were processed

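The data are 8 ChIP-seq peak lists on dm6 from 2 replicates of 1 group. Fragments were 200 to 800 bp, per the labels. The file headers name the alignments of both replicates, and inputs they do not identify, as the source of the series' lists. The sources used here do not give the aligner or peak caller, and without read counts the depth is unknown. The deposited signal has no stated scale. The score, as deposited, follows the IDR, and the deposited −log10 of the IDR was not used further. The deposited summit offset counts bp from the peak start. A further 16 per-input columns were not used, and 1 conservative peak off the main arms was left out.

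Summits were set against 23694 start sites of Ensembl release 115 (BDGP6.54), without transposable elements. Sequence came from RefSeq Release 6, whose arm lengths hold all peak and gene ends. Python 3.11.15, pandas 2.3.3 and matplotlib 3.10.9 were used, and calls were checked on simulated summits. With no second group, counts are set beside all protein-coding genes without a p-value. Named are every member, every gene at a bound member's summit, each member's divergent partner and the bound genes of the other 2 lists, 3 of whose symbols were matched through newer names. Genes at the nearest summit of an unbound member, and the unbound pore genes, were named after their values were seen. Members, lists and motifs were chosen with earlier results of these data known. Alternatives changed the reach, the list, the replicate, the signal limit and the way a summit is tied to a gene.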

Additional observations from a re-analysis of the deposited data

How the results depend on the processing

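The bound calls of Nup93-2, Nup98-96 and Nup160 held in all 9 alternatives that kept a threshold, those of Nup37 and Nup133 in 7 and that of Nup43 in 6. Of the 15 unbound calls, 14 held in all 9, and that of Nup58 in 8. Leaving out 1 replicate gave 5 to 5 bound nucleoporin genes, 0 to 1 other pore genes and 6 to 6 transport genes. Of all protein-coding genes 11.8% were bound in the thresholded list of replicate 1 and 13% in that of replicate 2. Without a threshold, in the conservative ranked list, where 67.8% of all protein-coding genes have a summit in reach, 18 of 21 nucleoporin, 8 of 9 other pore and 19 of 25 transport genes had one. Among the nucleoporin genes it was, by role, 8 of 8 in the Y complex, 5 of 6 in the inner ring and 2 of 3 in the central channel. It was 2 of 2 on the cytoplasmic side, 1 of 2 in the basket and 15 of the 18 divergent members. The share of all divergent genes in the conservative ranked list was not counted. At 1000 bp 1 central channel gene was bound, beside 19.7% of all protein-coding genes. With only the nearest TSS (12.1% of all genes) 3 of the 8 Y complex members were bound, as with the peak interval over a TSS (8.62%). With the nearest TSS other pore genes had 1, and at or above the median signal 0, beside 10.9% of all genes. With the peak interval transport genes had 5, beside 8.62%. No paired analysis was possible because there is only 1 group. Depth is unknown, so an unbound call says that no peak passed the threshold, not that the protein is absent.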
